A study of Homo sapiens with 11 samples.

Results

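Broad mH2A1.1 domains are the 2854 mH2A1.1 peaks of 24 kb or more, out of 30687 mH2A1.1 peaks called in MDA-MB-231 cells, an established human triple-negative breast cancer (TNBC) cell line. They were chosen by their width in the mH2A1.1 peak list, with or without overlap with the peaks of total mH2A1, so their width is a description and not a result. The ChIP-seq peaks come from wild-type (WT) cells without treatment, with 1 library precipitated with a custom polyclonal antibody to mH2A1.1 and 1 with the commercial antibody Ab37264, which binds total mH2A1. The paper reports that Ab37264 recognizes both isoforms, mH2A1.1 and mH2A1.2, with a lower affinity for tagged mH2A1.1 than the custom antibody. Places described below as without mH2A1 are places without an mH2A1 peak, and were not shown to lack the protein. RNA was sequenced from 2 WT samples, given the transfection reagent without siRNA, and from 2 samples in which the mH2A1.1 isoform was knocked down (KD) with siRNA at 11 nM, all collected on day 3. The positions below are on GRCh38, and read counts per gene were scaled here by library size to CPM.

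MacroH2A1 is a variant of histone H2A with a large globular macrodomain at its end. Alternative splicing of 1 gene, MACROH2A1, gives the isoforms mH2A1.1 and mH2A1.2, and only the macrodomain of mH2A1.1 binds ADP-ribose. MacroH2A is best known for wide stretches over silent chromatin, such as the inactive X chromosome and regions marked by H3K27me3, and it also occurs at active genes.

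Broad domains hold highly expressed genes as well as genes without a read. Promoters of both kinds from RefSeq (GRCh38.p14, 250 bases before to 50 bases after the gene start) are shown to set them side by side, with each CG dinucleotide in capitals. They were picked after their values were seen. GAPDH (chr12:6535014-6535313, plus strand), PTPN1 (chr20:50510133-50510432, plus strand) and S100A6 (chr1:153535942-153536241, minus strand) were highly expressed in WT cells and had no mH2A1 peak over their start. FBLN2 (chr3:13548875-13549174, plus strand), RYR1 (chr19:38433441-38433740, plus strand) and HOXA9 (chr7:27165488-27165787, minus strand) had at most 1 read in a WT library and an mH2A1 peak over their start. All 6 windows lie in broad domains. For HOXA9 the GENCODE start, at which mH2A1 was read here and below, lies upstream of the RefSeq one, at 27175180 in the same domain. Whether an mH2A1 peak lies over the HOXA9 window shown was not examined.
GAPDH: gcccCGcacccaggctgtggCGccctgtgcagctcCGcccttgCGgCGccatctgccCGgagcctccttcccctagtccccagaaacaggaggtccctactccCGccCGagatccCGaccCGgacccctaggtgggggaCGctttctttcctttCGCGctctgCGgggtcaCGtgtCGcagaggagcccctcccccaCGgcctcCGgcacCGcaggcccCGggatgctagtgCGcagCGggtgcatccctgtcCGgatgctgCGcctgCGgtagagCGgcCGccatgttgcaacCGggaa
PTPN1: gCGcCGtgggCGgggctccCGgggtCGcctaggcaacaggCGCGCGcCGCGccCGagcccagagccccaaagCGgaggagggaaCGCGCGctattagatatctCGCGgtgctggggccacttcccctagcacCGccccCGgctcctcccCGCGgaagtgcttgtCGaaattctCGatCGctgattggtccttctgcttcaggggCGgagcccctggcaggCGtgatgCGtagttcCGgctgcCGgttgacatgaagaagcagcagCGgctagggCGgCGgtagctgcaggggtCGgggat
S100A6: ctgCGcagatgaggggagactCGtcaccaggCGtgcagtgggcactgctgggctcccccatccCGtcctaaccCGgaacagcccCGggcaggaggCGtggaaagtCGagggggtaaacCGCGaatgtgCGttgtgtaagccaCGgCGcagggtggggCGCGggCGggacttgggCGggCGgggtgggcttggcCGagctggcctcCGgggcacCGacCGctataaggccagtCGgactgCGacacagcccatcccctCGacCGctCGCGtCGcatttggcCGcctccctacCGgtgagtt
FBLN2: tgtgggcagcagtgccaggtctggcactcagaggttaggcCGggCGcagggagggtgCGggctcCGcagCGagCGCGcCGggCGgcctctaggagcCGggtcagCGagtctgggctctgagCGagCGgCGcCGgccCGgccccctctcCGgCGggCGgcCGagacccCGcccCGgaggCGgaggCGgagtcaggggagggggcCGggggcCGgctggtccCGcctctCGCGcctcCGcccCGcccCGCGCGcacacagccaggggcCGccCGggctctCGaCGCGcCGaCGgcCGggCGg
RYR1: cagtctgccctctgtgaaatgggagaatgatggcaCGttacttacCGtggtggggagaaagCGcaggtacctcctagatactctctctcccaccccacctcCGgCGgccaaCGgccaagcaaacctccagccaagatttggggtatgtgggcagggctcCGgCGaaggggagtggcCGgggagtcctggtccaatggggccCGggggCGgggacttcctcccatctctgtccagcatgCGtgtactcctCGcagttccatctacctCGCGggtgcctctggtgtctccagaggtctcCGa
HOXA9: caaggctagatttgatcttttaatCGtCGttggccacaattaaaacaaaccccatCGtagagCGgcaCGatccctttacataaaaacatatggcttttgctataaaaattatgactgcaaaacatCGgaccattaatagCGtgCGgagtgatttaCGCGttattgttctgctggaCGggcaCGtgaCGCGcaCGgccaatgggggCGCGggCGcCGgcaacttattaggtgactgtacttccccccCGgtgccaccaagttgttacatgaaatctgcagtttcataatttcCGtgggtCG
The promoters of GAPDH, PTPN1 and S100A6 hold 28, 33 and 31 CG dinucleotides, and those of FBLN2, RYR1 and HOXA9 hold 43, 16 and 22. The silent FBLN2 promoter, with a GC content of 81%, holds more than the 3 active ones, and those of RYR1 and HOXA9 hold fewer. RefSeq promoters were matched to 2092 protein-coding genes that start in a broad domain. Their median was 25 CG dinucleotides in the 300 bases, against 23 over the 14393 protein-coding genes matched in all. Within the domains, the 333 promoters of genes with 0 counts in both WT libraries had a median of 9 and the 1060 promoters of genes at 10 CPM or more in both had a median of 29. Outside all mH2A1.1 peaks the same medians were 5 and 26.

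All peaks lie on a grid of 3 kb, the bin of the authors' peak calls, so widths come in steps of 3 kb. The median domain was 36 kb wide, the quartiles were 27 and 51 kb, and the longest was 495 kb. Domains of 24 to 36 kb made up 54.8% of the members, 844 (29.6%) reached 48 kb and 172 (6.03%) reached 99 kb. Though few in number among the peaks, the broad domains held 130380000 bases, or 44.9% of all bases under mH2A1.1 and 4.44% of the ungapped genome. No break in the number of peaks lay at the limit, with 657 peaks of exactly 21 kb just outside and 449 of exactly 24 kb just inside. These neighbours were also close in other measures, with 85.8% and 90% overlapping mH2A1, 46.1% and 49.1% of their bases under mH2A1 and a GC content of 49.3% and 50%.

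**Figure D1:**
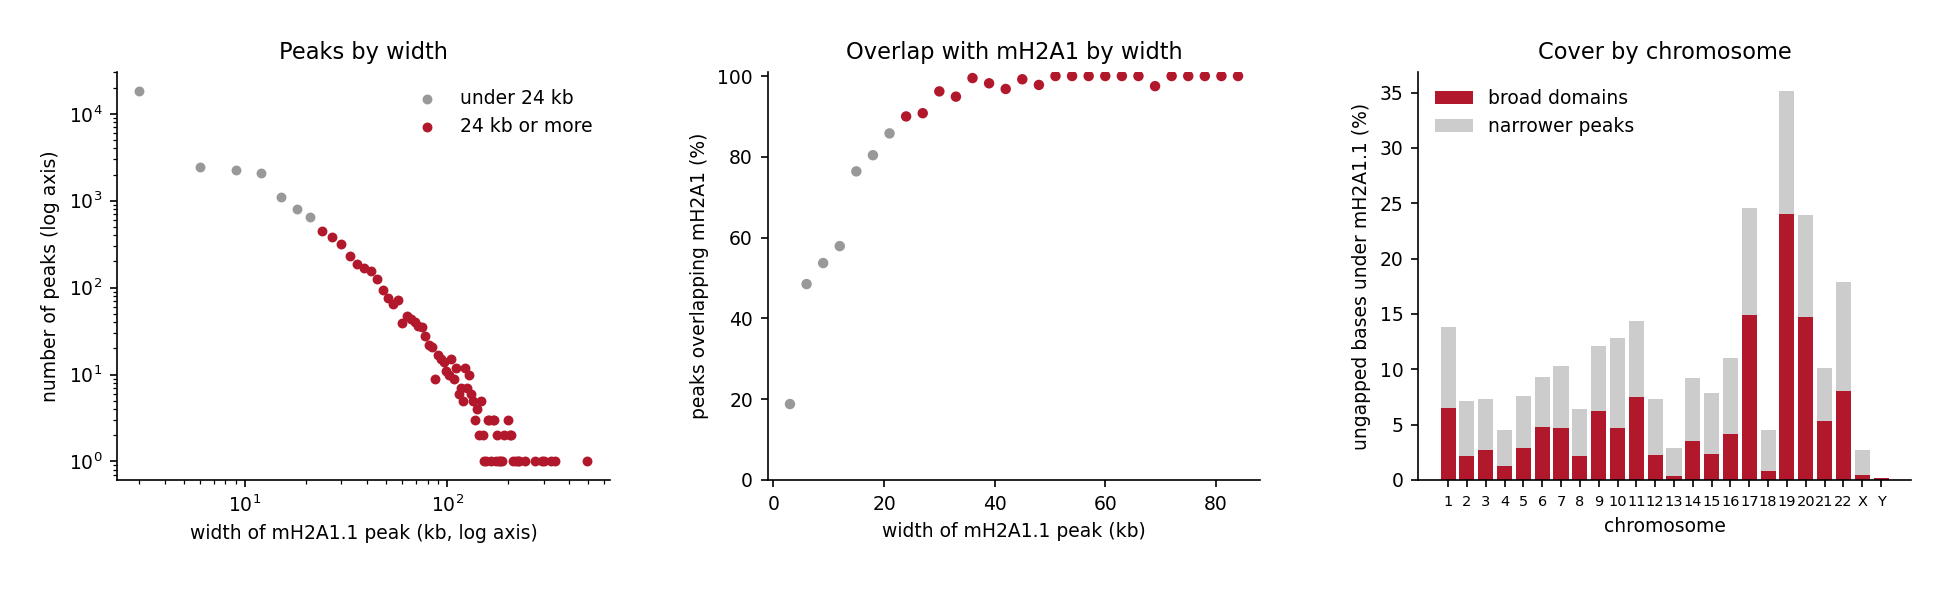
Left, number of mH2A1.1 peaks at each width (both axes logarithmic). Middle, share of mH2A1.1 peaks that overlap an mH2A1 peak, for each width with at least 20 peaks. Right, share of the ungapped bases of each chromosome under broad domains (red) and under narrower mH2A1.1 peaks (grey). The overlap climbs from 18.8% at 3 kb to 90% at 24 kb, and chromosomes 19, 17 and 20 have the highest cover by broad domains.

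The first question was how far the domains found with the mH2A1.1 antibody were also found with the antibody to total mH2A1. Of the 2854 domains, 2737 (95.9%, 95% exact binomial interval 95.1% to 96.6%) shared 1 bp or more with an mH2A1 peak, against 60.5% of the peaks of 6 to 21 kb and 18.8% of those of 3 kb. A wide peak has more chances to touch another peak, so the share of bases is given as well. It is not free of width either, since edge bins weigh more in narrow peaks. In broad domains 53.4% of the outermost bins were under mH2A1, against 61.6% of bins 3 steps further in. The part of this in the shares by width was not tested. Peaks of mH2A1 covered 66.6% of the bases in broad domains, 38.1% in peaks of 6 to 21 kb, 18.8% in peaks of 3 kb and 4% outside mH2A1.1 peaks. Among broad domains this share was 49% for widths of 24 to 27 kb, 59.8% for 30 to 45 kb, 73% for 48 to 96 kb and 82.7% for 99 kb or more. Intervals cover counting error only, and with 1 library per antibody none of these shares has a replicate check.

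The domains differed widely in how much mH2A1 they held. The median domain had 63.9% of its 3 kb bins under mH2A1, with quartiles of 37.5% and 87.5%. All bins were under mH2A1 in 475 domains (16.6%) and none in 117 (4.1%). In the other direction, 1631 of the 2468 mH2A1 peaks of 24 kb or more (66.1%) overlapped a broad mH2A1.1 domain and 2452 (99.4%) overlapped an mH2A1.1 peak of some width. In 1629 domains (57.1%) mH2A1 went on past an edge of the mH2A1.1 domain, by a median of 15 kb at such an edge.

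Broad domains were unevenly spread over the chromosomes. They covered 24% of chromosome 19, 14.9% of chromosome 17 and 14.7% of chromosome 20, against 0.352% of chromosome 13, 0.488% of chromosome X and 0.772% of chromosome 18. Chromosome 19 alone held 257 domains and 10.7% of all domain bases. Across the 22 autosomes and chromosome X, the cover by broad domains went with the density of protein-coding genes (Pearson's r = 0.895, Spearman's rho = 0.788, n = 23 chromosomes) and with the GC content (r = 0.817, rho = 0.781). Gene density and GC content themselves go together along chromosomes, so these values describe 1 pattern. Chromosome 20 stood out with 14.7% cover at 8.54 protein-coding genes per Mb, while chromosome 16, which is denser in genes, had 4.18%.

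Neighbouring domains often lay close together. The median gap to the next broad domain on a chromosome was 105 kb, and 731 of 2830 gaps (25.8%) were at most 30 kb. Some bases of 13 domains are assembly gaps. The domain sequence had a GC content of 51.2% and 19.9 CG dinucleotides per kb, against 48.4% and 17.3 in peaks of 6 to 21 kb, 46.1% and 15.8 in peaks of 3 kb and 39.9% and 9.11 outside mH2A1.1 peaks.

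Most domains lay over or beside genes, and a large minority held no protein-coding start. In 688 domains (24.1%) no annotated gene of any type started. A protein-coding gene (GENCODE release 44) started in 1522 domains (53.3%, 95% exact binomial interval 51.5% to 55.2%), and 674 (23.6%) held 2 or more starts. Another 432 (15.1%) lay wholly inside 1 protein-coding gene, 267 (9.36%) lay partly over one, and 633 (22.2%) touched none. The density was 22.6 protein-coding starts per Mb, close to the 24.6 in peaks of 6 to 21 kb, below the 30.7 in peaks of 3 kb and above the 4.84 outside mH2A1.1 peaks. In all, 2947 protein-coding genes, 1932 lncRNA genes and 272 miRNA genes started in a broad domain.

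The longest domain (chromosome 20, 62343001 to 62838000) spans 495 kb with 10 protein-coding starts and had 92.7% of its bins under mH2A1. Expressed genes and genes with few or no reads are interspersed along it. LAMA5, a laminin chain of basement membranes, had 4321 and 3408 counts in WT replicates 1 and 2. RPS21, a protein of the small ribosomal subunit, had 1079 and 1064 counts and OGFR, the opioid growth factor receptor, had 1069 and 966. MRGBP had 577 and 506 counts, SLCO4A1, an organic anion transporter, 556 and 448, and CABLES2 344 and 341. In contrast, the transcription factor gene GATA5 and RBBP8NL had 0 counts in both WT libraries, COL9A3, a collagen of cartilage, had 7 and 4, and NTSR1, a neurotensin receptor, had 13 and 7. The starts of these 4 genes were under mH2A1, as were those of the expressed genes LAMA5, CABLES2 and SLCO4A1, while those of RPS21, MRGBP and OGFR were not.

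The next 5 domains hold few genes. The 342 kb domain on chromosome 11 (69381001 to 69723000) holds CCND1, the gene of the cell cycle regulator cyclin D1, with 8190 and 6429 WT counts and no mH2A1 at its start, LTO1 with 329 and 251, and the growth factor gene FGF19 with 0 and 0. The 327 kb domain on chromosome 6 (43791001 to 44118000) holds no protein-coding start and 9 lncRNA starts. It begins 20817 bp past the start of VEGFA, the vascular endothelial growth factor gene, which had 3633 and 3010 counts, and 93.6% of it was under mH2A1. The 303 kb domain on chromosome 20 (50208001 to 50511000) fills the space between CEBPB, 17171 bp away with 83 and 61 counts, and PTPN1, a tyrosine phosphatase gene with 2220 and 1764 counts, whose start lies in its last bin. In the 294 kb domain on chromosome 6 (36933001 to 37227000), MTCH1 had 4053 and 3577 counts, the kinase gene PIM1 538 and 442, PI16 107 and 83 and FGD2 1 and 1. The 273 kb domain further along chromosome 6 (37473001 to 37746000) was under mH2A1 over its whole length and holds MDGA1, with 162 and 184 counts, and CCDC167, with 151 and 126.

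**Figure D2:**
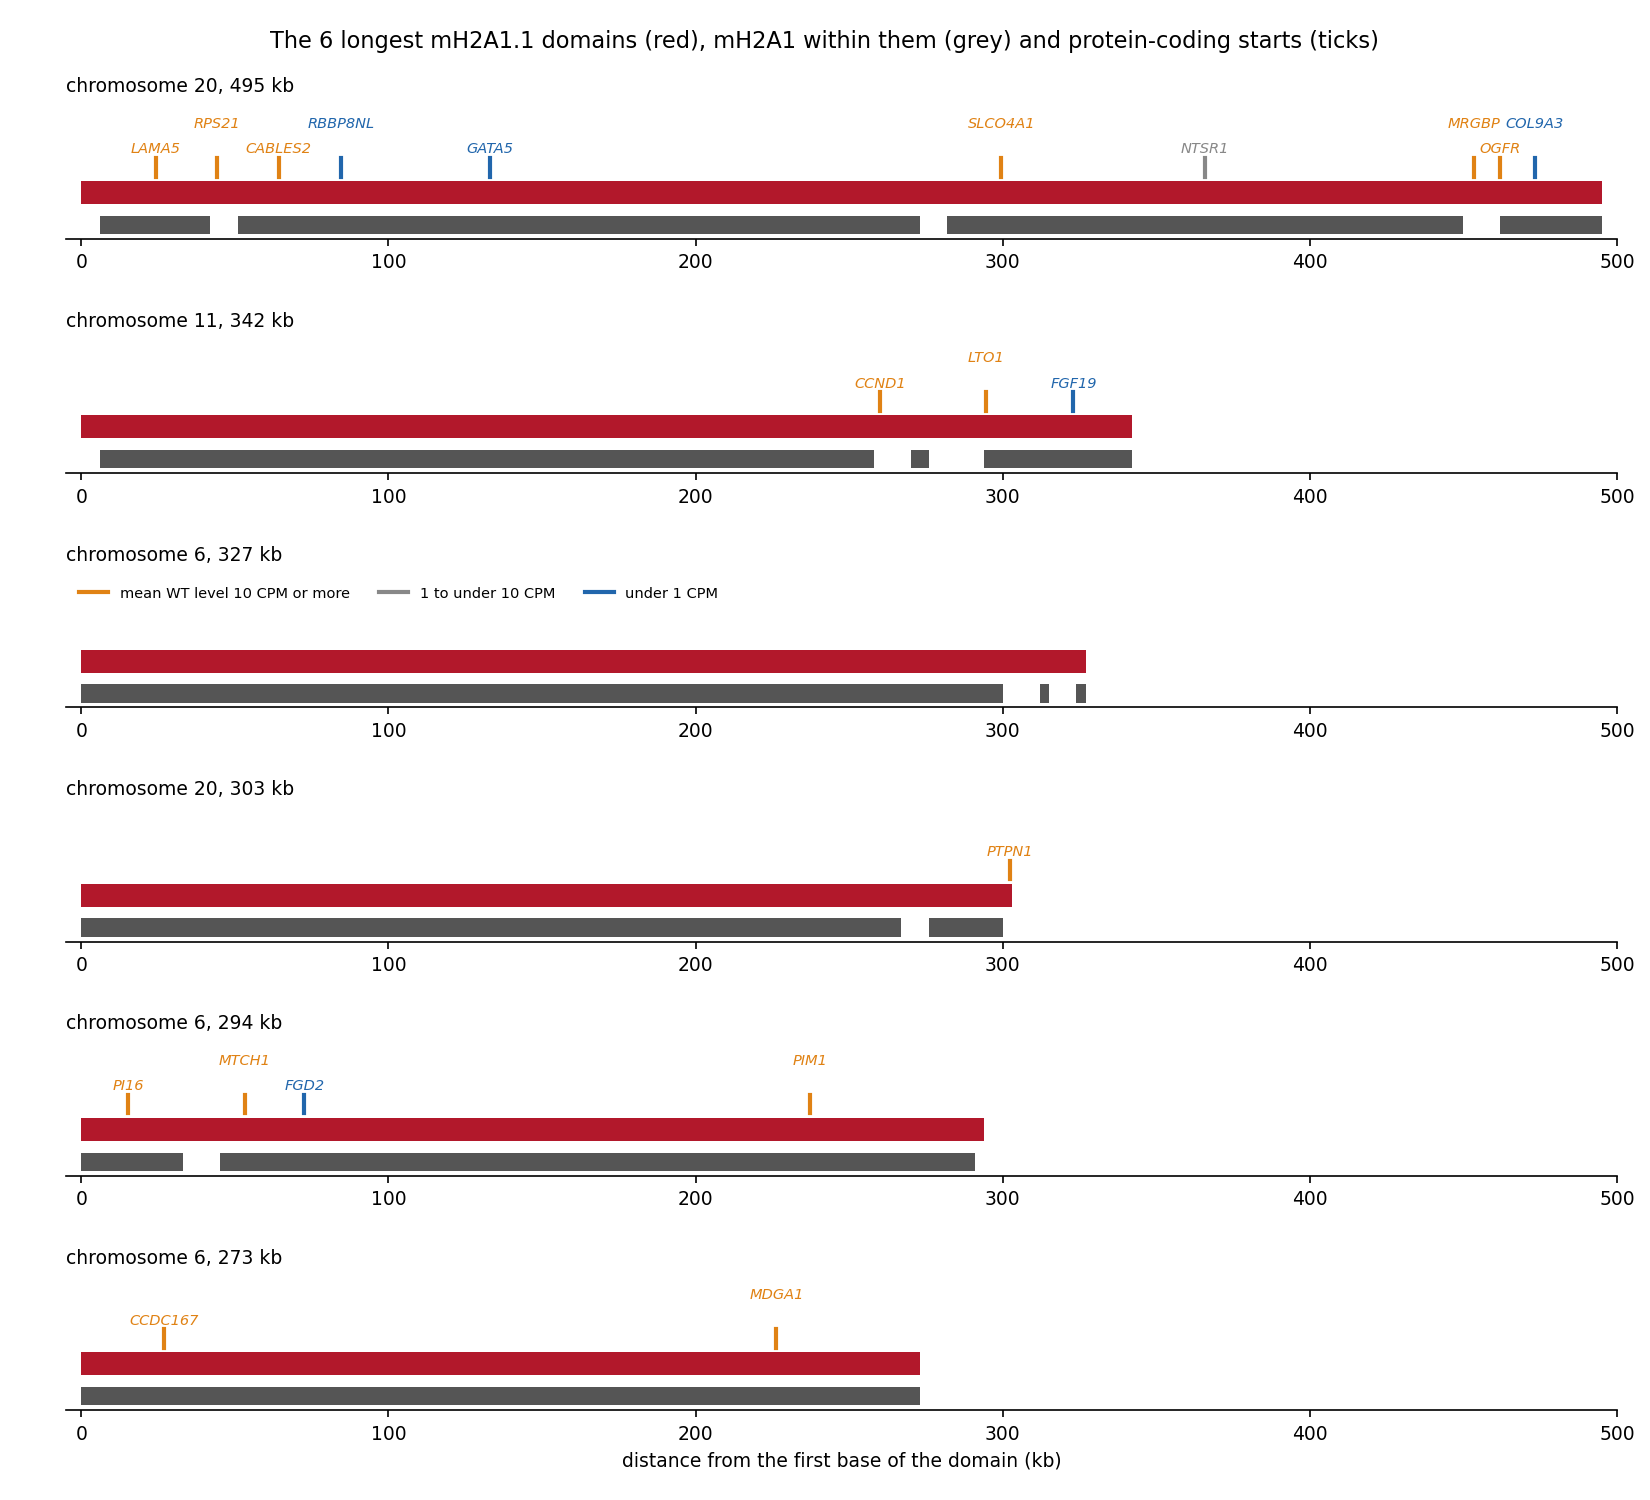
The 6 longest broad domains (red bars, lengths in kb from the first base), the stretches of each under mH2A1 peaks (grey bars) and the starts of protein-coding genes (ticks with symbols), coloured by the mean WT level (orange 10 CPM or more, grey 1 to under 10 CPM, blue under 1 CPM). The grey bars are broken at RPS21 and MRGBP and at CCND1, and cover the starts of the silent or lowly expressed GATA5, NTSR1 and FGF19 and also those of the expressed genes LAMA5, CABLES2, SLCO4A1, LTO1, MTCH1 and PIM1.

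The remaining 4 of the 10 longest domains lie on chromosomes 19 and 7. The 243 kb domain on chromosome 19 (38277001 to 38520000) has 11 starts and only 58% of its bins under mH2A1. PSMD8, a proteasome subunit gene, had 1239 and 1189 counts there, YIF1B 282 and 231, SPRED3 200 and 159, KCNK6 115 and 126, FAM98C 52 and 40, CATSPERG 13 and 9 and GGN 9 and 7. RYR1, the calcium release channel of skeletal muscle, had 0 and 1, C19orf33 0 and 3 and RASGRP4 0 and 0. ENSG00000267748 was not in the count tables. The 228 kb domain (44688001 to 44916000) runs from CEACAM16 (0 and 1 counts) over BCL3 (247 and 210), CBLC (0 and 0), BCAM (174 and 125), NECTIN2 (1579 and 1187) and TOMM40 (986 and 799) to the apolipoprotein genes APOE (5 and 4) and APOC1 (2 and 2). The 225 kb domain on chromosome 7 (1548001 to 1773000) holds ELFN1, with 1 and 1 counts, TMEM184A, with 59 and 56, and PSMG3, with 127 and 143. The 219 kb domain on chromosome 19 (14175001 to 14394000) holds ADGRE5, an adhesion receptor gene with 2621 and 2224 counts, and ADGRL1, with 239 and 199.

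Over these 10 domains, 25 of the 43 genes in the count tables were at 10 CPM or more in both WT libraries and 16 were under 2 CPM in both. An mH2A1 peak lay over the start of 13 of the 16 lowly expressed genes and of 14 of the 25 expressed genes.

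The WT libraries served to ask how active the genes of broad domains were in these cells. Of the 2947 genes, 2780 were in the count tables, and their median level was 7.8 CPM in WT replicate 1 and 8.3 CPM in WT replicate 2. This was below the medians in peaks of 6 to 21 kb (19.3 and 19.9 CPM) and of 3 kb (35.4 and 33.8 CPM), and slightly above those of genes outside mH2A1.1 peaks (6.22 and 6.06 CPM). Per exon length the medians were 2.02 and 2.07 FPKM in the domains and 1.24 and 1.17 FPKM outside mH2A1.1 peaks. Of the 2780 genes, 502 (18.1%, 95% exact binomial interval 16.6% to 19.5%) had 0 counts in both WT libraries, against 13.5% in peaks of 6 to 21 kb, 8.38% in peaks of 3 kb and 28.6% outside. A level of 10 CPM or more in both libraries was reached by 1316 (47.3%), and by 58.9%, 69.7% and 46% in the other 3 places. Genes are not replicates and these shares carry no test between places. Another protein-coding gene overlaps the span of 28.1% of the 502 genes at 0 and of 34.8% of the other 2278, and one on the same strand overlaps 11% and 11.8%.

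The 10 domain genes with the highest WT level are mostly genes of the cytoskeleton and of metabolism. ACTB, which encodes beta-actin, led with 5223 and 5613 CPM in WT replicates 1 and 2, in a 75 kb domain. It was followed by GAPDH, a glycolytic enzyme (2957 and 3043 CPM), ACTG1, which encodes gamma-actin (2663 and 2865 CPM), HSP90AB1, a chaperone (2643 and 2759 CPM), and ENO1, another glycolytic enzyme (2502 and 2560 CPM). MYH9, a non-muscle myosin (2369 and 2597 CPM), DYNC1H1, a dynein chain (2141 and 2229 CPM), and MACF1, a cytoskeletal crosslinker (1459 and 1475 CPM), extend far out of their domains, which cover 8.11%, 3.23% and 8.09% of their bodies. The list ends with S100A6, a calcium-binding protein (1228 and 1436 CPM), and FTL, the ferritin light chain (1234 and 1365 CPM), which lie wholly in their domains. The starts of ACTB, ACTG1, MACF1 and FTL were under mH2A1 and those of the other 6 were not.

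Some long genes with few or no reads lay almost wholly in broad domains, though most silent genes did not, as 3532 genes at 0 counts in both WT libraries had no part of the body in one. Of protein-coding genes with at least 90% of the body in broad domains and at most 50 WT counts in all, chosen after their values were seen, the following are examples among the longest. GRM4, a glutamate receptor gene of 136980 bp on chromosome 6, had 0 counts in both WT libraries, and all of its body was in a 162 kb domain and under mH2A1. CDH22, a cadherin gene of 134760 bp on chromosome 20, had 1 and 0 counts and was likewise wholly under both. NRXN2, a neurexin gene of 117024 bp on chromosome 11, had 0 counts in both, with 92.5% of its body in domains, and FBLN2, the gene of fibulin-2, had 0 and 1 with 100%. CDH1, which encodes the epithelial adhesion protein E-cadherin, had 22 and 19 WT counts, with 91.2% of its body in broad domains and 82.4% of it under both marks.

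The 1545 genes wholly inside broad domains had a median length of 8792 bp, but short genes fit more easily, so this is not a result. Their median levels were 2.42 and 2.37 CPM. The 14327 genes with no part in a domain had 11.1 and 10.9 CPM, at a median length of 31449 bp. CPM is not scaled for length. Among the genes wholly inside, the 352 at 0 in both WT libraries had a median of 100% of the body under mH2A1. The 573 at 10 CPM or more had a median of 18.2%. No bin of the body was under mH2A1 in 11.6% of the first and 43.5% of the second.

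A peak of total mH2A1 at the start of a gene went with low expression inside broad domains, and the same order was seen in each WT library. By the levels in WT replicate 1, an mH2A1 peak lay over the start of 78.2% of the domain genes at 0 CPM (95% exact binomial interval 74.7% to 81.5%, n = 592 genes), 71.8% of those up to 1 CPM, 59.7% up to 10 CPM, 41.3% up to 100 CPM and 37% above 100 CPM (32.4% to 41.9%, n = 416 genes). By WT replicate 2 the shares were 78.7%, 69.2%, 61.1%, 41.8% and 36.2%. The intervals of the last 2 classes overlapped in each library. Narrower peaks also had a fall, at lower shares, from 55.5% to 18.2% in peaks of 6 to 21 kb and from 27.7% to 11.6% in peaks of 3 kb by WT replicate 1, so the fall was not particular to broad domains. Outside mH2A1.1 peaks the shares were between 6.31% and 17% by WT replicate 1. In broad domains the median exon GC content of the classes lay between 55.4% and 59.7%, and its part in the shares was not tested.

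**Figure D3:**
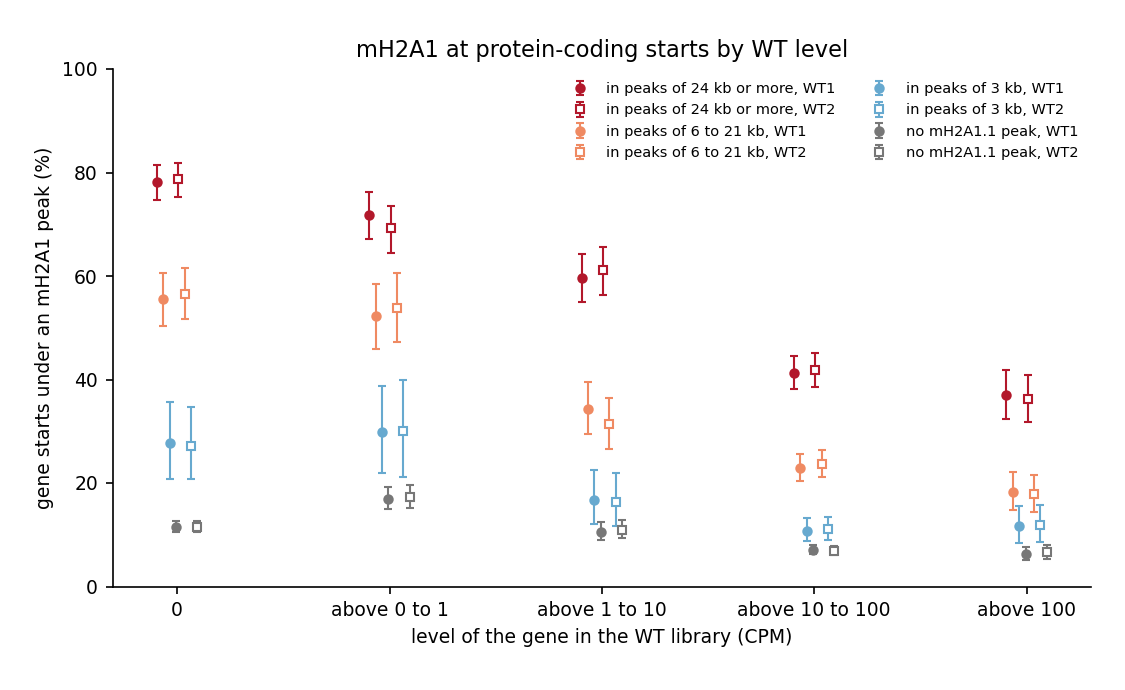
Share of protein-coding gene starts under an mH2A1 peak (vertical axis, %) by the level of the gene in each WT library (horizontal axis, classes of CPM), for starts in broad mH2A1.1 domains, in narrower peaks and in no peak. Points are shares, filled for WT replicate 1 and open for WT replicate 2, with 95% exact binomial intervals. In broad domains the share drops from 78.2% at 0 CPM to 37% above 100 CPM by WT replicate 1.

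The lower mH2A1 cover of active genes reached from the start into the body. Each bin counted lay within an mH2A1.1 peak, though the mH2A1.1 signal of single bins was not examined. Only bins of the same broad domain were counted. Genes with less domain beside their start therefore drop out with distance. From the start to 24 kb downstream the bins fell from 1316 to 465 for genes at 10 CPM or more, and from 502 to 242 for genes at 0. Wider domains held more mH2A1, and the part of domain width in the values far from the start was not tested. For genes at 10 CPM or more in both WT libraries, mH2A1 lay over 58.7% of the bins 6 kb upstream of the start, 40% at the start (95% exact binomial interval 37.4% to 42.8%), 34.9% at 6 kb downstream, 41.3% at 12 kb and 51.4% at 24 kb downstream (46.8% to 56%). For genes at 100 CPM or more the values were 62%, 37.4%, 34.2%, 38.2% and 53.1%. For genes at 0 counts the values were 80%, 78.7%, 77%, 78% and 66.9%, with no dip at the start. The lowest values of active genes thus lay on the side of the body. The GC content at the start bin was close, at 57.4% for genes at 10 CPM or more and 56.7% for genes at 0.

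**Figure D4:**
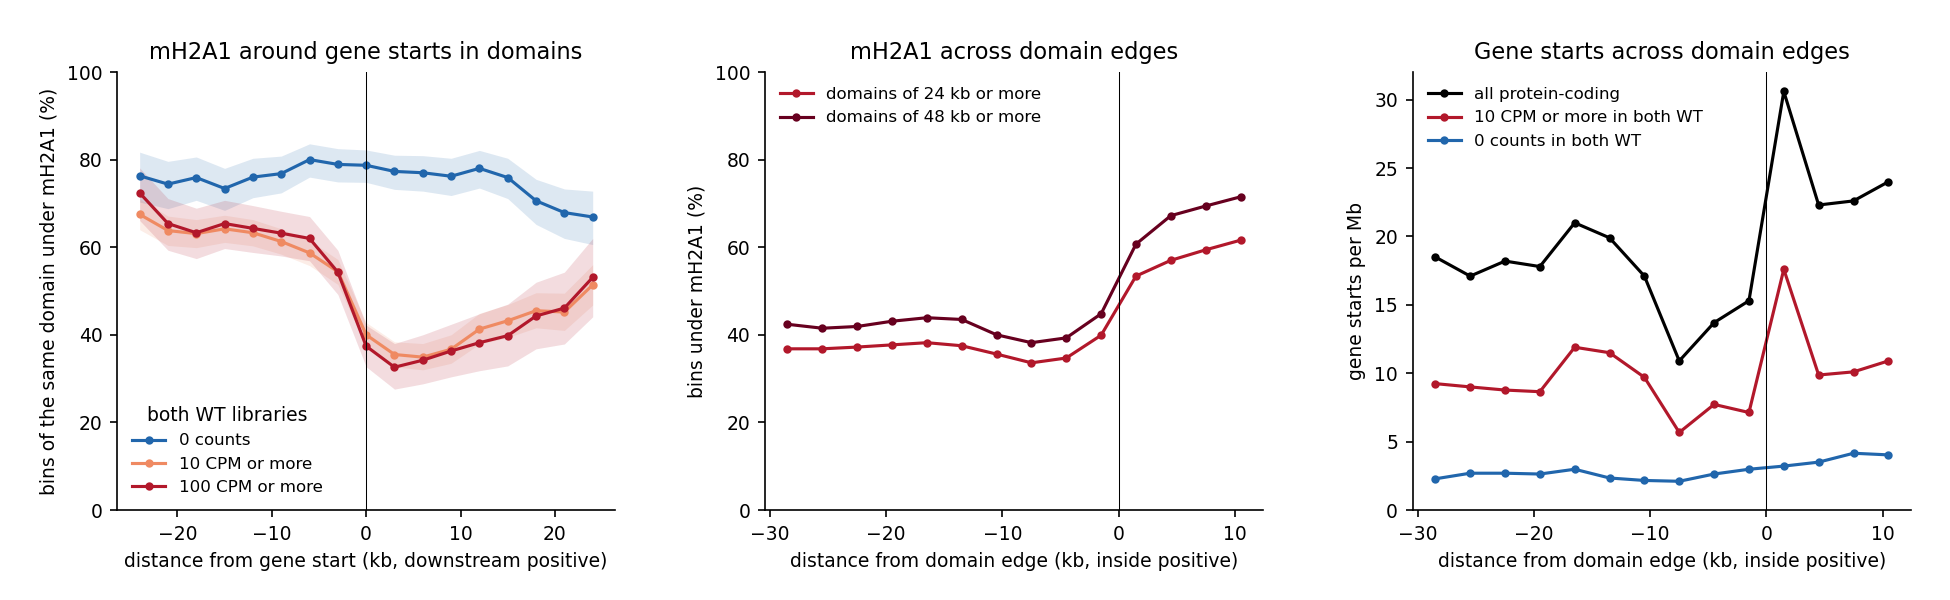
Left, share of 3 kb bins under mH2A1 by distance from the gene start (kb, downstream positive) within the same broad domain, for genes at 0 counts, at 10 CPM or more and at 100 CPM or more in both WT libraries, with 95% exact binomial intervals as bands. Middle, share of bins under mH2A1 by distance from the domain edge (kb, inside positive), for domains of 24 kb or more and of 48 kb or more. Right, protein-coding starts per Mb by distance from the edge. Active genes dip to 34.9% downstream of the start, and starts of genes at 10 CPM or more reach 17.6 per Mb in the outermost bin inside the edge.

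At the edges of the domains both mH2A1 and gene starts differed between adjoining bins. No other mH2A1.1 peak lies in the first 3 bins outside, and the smallest gap between broad domains was 9000 bp. The peak calls set which bins lie inside or outside, and their part in the differences below was not tested. Peaks of mH2A1 covered 39.9% of the first bins outside and 53.4% of the first bins inside, and the share was 61.6% in the bin 3 steps further in. The outermost bin inside the edge held 30.6 protein-coding starts per Mb, close to the 30.7 in peaks of 3 kb. The first bin outside held 15.3 per Mb and the second bin inside 22.3. Expressed and silent genes differed here. Starts of genes at 10 CPM or more had densities of 7.13, 17.6 and 9.87 per Mb from the first bin outside to the second inside, while those of genes at 0 counts had 2.98, 3.21 and 3.5 per Mb.

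The share of a domain under mH2A1 also went with the activity of its genes. Genes starting in the 117 domains without mH2A1 had median levels of 32.8 and 32.3 CPM in the 2 WT libraries, and 69.9% of these 103 genes were at 10 CPM or more (95% exact binomial interval 60.1% to 78.5%). In the 475 domains wholly under mH2A1 the medians were 0.211 and 0.198 CPM, 21.4% of 294 genes were at 10 CPM or more (16.9% to 26.6%) and 36.1% were at 0 (30.6% to 41.8%). The domains in between lay in between, with medians of 19.2 and 19.9 CPM at a cover above 0 and under 50% and of 6.11 and 5.93 CPM at 50% to under 100%. Starts were also denser in domains without mH2A1, at 34.3 per Mb against 15 in those wholly covered, at a similar GC content of 50.8% and 51%. The longest domain without mH2A1 (chromosome 20, 63888001 to 63957000, 69 kb) holds DNAJC5, with 169 and 179 CPM in WT replicates 1 and 2, and UCKL1, with 54.5 and 58.6. The 48 kb domain at DNM2, the gene of dynamin 2 (chromosome 19, 10716001 to 10764000), with 266 and 282 CPM, and the 42 kb domain at UBA1 and CDK16 on chromosome X (47178001 to 47220000), with 528 and 569 and with 198 and 216 CPM, belong to the same group. These were named after their values were seen.

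Of all protein-coding genes in the count tables, 15.4% started in a broad domain, and the gene lists differed around this share. The share is a description of each list, without a test. Among the HOX genes, the clustered regulators of body axis identity, 10 of 39 (25.6%) started in a broad domain, and 6 of the 10 had 0 counts in both WT libraries, as did 23 of the 39. By position, HOXA7, HOXA9, HOXA10 and HOXA11 start in a 33 kb domain on chromosome 7 (27156001 to 27189000), all with 0 counts and mH2A1 at the start. Of 155 developmental transcription factors, 26 (16.8%) started in a domain, 11 of them at 0, where 71 of the 155 were at 0. GATA5 is one of these, and those with the highest levels were FOXP4 (225 and 225 CPM), FOXQ1 (25.5 and 20.8 CPM), SOX12 (19.5 and 18.2 CPM) and FOXC1 (19.6 and 15.8 CPM). None of the 330 olfactory receptors and none of the 53 clustered protocadherins, large families that are silent in most cells, started in a broad domain, although 312 and 12 of them had 0 counts. Of 232 genes on chromosome 19 with a ZNF symbol, most of which encode zinc finger repressors, 13 (5.6%) started in a domain, led by ZNF587 (91.7 and 91.3 CPM), ZNF611, ZNF574 and ZNF526.

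Lists of genes that are active in most cells or in signalling held shares from 5% to 50%. Of 79 genes with a cytosolic ribosomal protein symbol, 26 (32.9%) started in a broad domain, 25 of them at 10 CPM or more, and 10 of the 26 starts were under mH2A1. The 4 with the highest levels were RPL7L1, RPL8, RPL3 and RPL13A, between 462 and 812 CPM in the WT libraries. RPL7L1 is a relative of RPL7, and reads of ribosomal protein genes can be shared with pseudogene copies. Of 16 AP-1 factors, transcription factors of the FOS, JUN and MAF families, 8 (50%) did, among them FOSL1 (414 and 437 CPM), FOSL2 (306 and 306), FOSB (173 and 174) and MAFG (68.5 and 73.2). Of 23 genes of the EGFR-RAS-ERK pathway, 4 (17.4%) did, all at 10 CPM or more, namely the phosphatase genes DUSP5 and DUSP1, the kinase gene MAP2K2 and the ETS factor gene ETV4. Of 20 TGF-beta pathway genes, ID1 (32.1 and 38.5 CPM) was the only one. Of 21 Polycomb and macroH2A genes, 3 (14.3%) did, among them the chromobox genes CBX2 (13.6 and 16.2 CPM) and CBX8 (11.3 and 13.3 CPM) on chromosome 17.

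Genes that define epithelial identity were also found in the domains. Of 20 luminal genes, 9 (45%) started in a broad domain and 7 of these starts were under mH2A1. The keratin genes KRT8 (497 and 556 CPM), KRT18 (344 and 381) and KRT19 (261 and 287) and the ETS factor gene SPDEF (25 and 22.3) had the highest levels, and the other 5 lay between 0.527 and 6.74 CPM, CDH1 among them. Of 45 keratins, 10 (22.2%) did, 3 of them at 0 counts, where 31 of the 45 were at 0. The first by position were KRT80 (193 and 210 CPM), KRT8 and KRT18 on chromosome 12 and KRT35, with 0 counts, on chromosome 17. Of 24 mesenchymal and basal genes, 5 (20.8%) did, among them S100A4 at 153 and 156 CPM, COL6A2 at 61.1 and 61.2 and COL1A1 at 9.69 and 8.69. Of 38 integrins and laminins, 8 (21.1%) did, led by ITGA3 (1238 and 1329 CPM), LAMA5 (455 and 449), ITGB4 (324 and 348) and ITGA5 (165 and 171). Of 22 genes named by the study, a list chosen on these samples and so not independent, 6 (27.3%) did, of which MT1E, PRCC, JUND and TOX2 had the highest levels.

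The KD libraries differ in depth and completeness. The counts summed to 9794674 and 7856892 in WT replicates 1 and 2 and to 5584962 and 2309549 in KD replicates 1 and 2, and KD replicate 2 had 30 counts on chromosome 21 and 0 on chromosomes 22 and X, so these 3 chromosomes were left out of the tests. Defining mesenchymal-like markers of this line were high in the WT libraries, with VIM at 2318 and 2509 CPM and CD44 at 1328 and 1321, and the leukocyte markers summed to 0.211 and 0.395 CPM. MACROH2A1 had 3658 and 2993 counts in WT and 1449 and 635 in KD, with a log2 fold change of -0.44 (standard error 0.173, adjusted p = 0.204 by the quasi-likelihood test of edgeR), and its gene count does not separate the isoforms. The labels do not say that the cultures were independent, and p-values measure the spread between these libraries.

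The knockdown asked which genes of broad domains depend on mH2A1.1. Of the 2780 domain genes in the count tables, 95 lie on the chromosomes left out, 1008 had too few counts and 1677 were tested. With limits of 0.1 for the adjusted p and 1.5 for the fold, edgeR called 0 of the 10943 genes tested (0%) and 0 domain genes, and no adjusted p was below 0.175. Without adjustment, at p under 0.05, edgeR had 413 domain genes higher (24.6%) and 35 lower (2.09%) in KD, where the shares of all tested genes were 11.8% higher and 11.4% lower. DESeq2, the tool of the study, called 159 domain genes higher (13.3% of 1192 with an adjusted p) and 11 lower (0.923%), where the shares of all 7739 genes were 5.57% and 5.78%. By edgeR with offsets for exon GC content and exon length, 40 domain genes were called higher (2.39%) and 15 lower (0.894%). The shares of all genes were 1.69% and 1.38%.

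The shift of domain genes towards higher values in KD was smaller with the offsets for exon GC content and exon length, which were applied together. It also differed between the KD libraries. The median log2 fold change was 0.363 over the 1677 domain genes and 0.008 over all tested genes, and 80.3% of domain genes were above 0. With the GC and length offsets the medians were 0.113 and 0.095, and 62.4% of domain genes and 61.2% of all genes were above 0. Domain genes had a median exon GC content of 57.8% and a median gene span of 17550 bp, against 47.1% and 35333 bp over all tested genes. The gene span includes introns and is not the exon length that the offsets used. By library, the median log2 ratio of domain genes to the mean WT level was 0.14 in KD replicate 1 and 0.58 in KD replicate 2, and 0.00 over all genes in both. Genes starting in 3 kb peaks had a median exon GC content of 43.7%, a median gene span of 43890 bp and a median log2 fold change of -0.117. For genes outside mH2A1.1 peaks these were 44.1%, 44586 bp and -0.108. With the offsets both median log2 fold changes were 0.096. The epithelial markers, of which KRT8, KRT18, KRT19 and CDH1 start in broad domains, summed to 1409 and 1562 CPM in WT and 2272 and 3521 CPM in KD, all 6 being detected. The keratins carried this sum, whereas EPCAM had 19.9 and 22.1 CPM in WT and 24.2 and 21.3 in KD, and CDH1 had 2.32 and 2.5 in WT and 0.378 and 2.37 in KD. The 5 mesenchymal-like markers summed to 7144 and 7263 CPM in WT and 7894 and 10627 CPM in KD. The 5 fibroblast markers summed to 33.2 and 37.7 CPM in WT and 61.1 and 93.2 CPM in KD, with DCN at 0 in all libraries. The part of GC content, of length, of library and of these markers in the shift was not tested beyond these values. In these bulk libraries a change in the share of some cells and a change in RNA per cell cannot be told apart. Within broad domains the medians were 0.342 for the 747 tested genes with mH2A1 at the start and 0.38 for the 930 without.

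**Figure D5:**
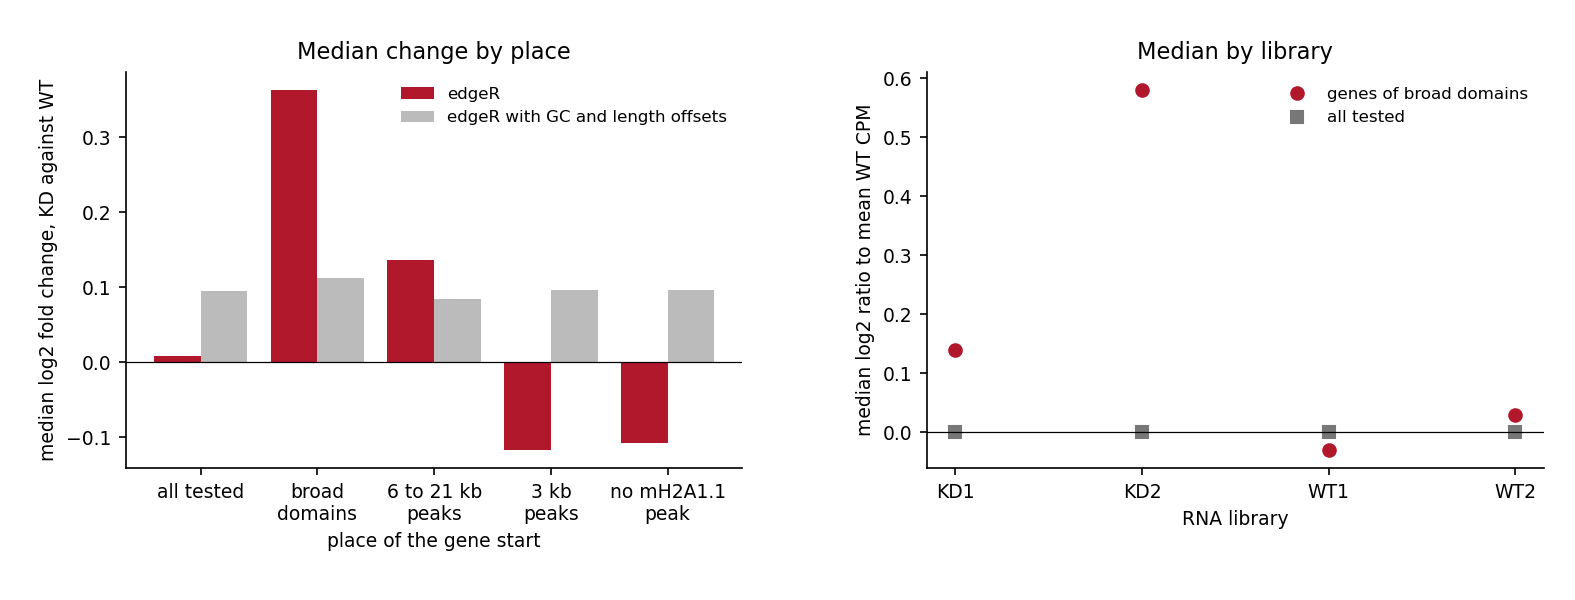
Left, median log2 fold change between KD and WT for genes by the place of their start, by edgeR (red) and by edgeR with GC and length offsets (grey). Right, median log2 ratio of each RNA library to the mean WT level for genes of broad domains (circles) and all tested genes (squares). The median of domain genes is 0.363 without and 0.113 with the offsets, and KD replicate 2 sits at 0.58.

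None of the domain genes named next was called by the main test, in which their adjusted p-values from edgeR lay between 0.175 and 0.193. The 10 domain genes with the smallest p among those lower in KD were NR4A1, BIRC3, TMEM200B, KLF11, ETV4, IL11, CLK4, DENR, FOSB and SERPINB9, with log2 fold changes from -1.97 to -0.64. NR4A1, an immediate early nuclear receptor gene in a 48 kb domain on chromosome 12, had 74.1 and 64.8 CPM in WT replicates 1 and 2 and 14.9 and 21.8 CPM in KD replicates 1 and 2. Its log2 fold change was -1.97 (standard error 0.246), the adjusted p was 0.175 by edgeR and 5.69e-07 by DESeq2, and with the GC and length offsets the log2 fold change was -2.29 (adjusted p = 0.00704 by edgeR). BIRC3, an inhibitor of apoptosis, had 171 and 155 CPM in WT and 71.3 and 34.1 in KD, and its log2 fold change of -1.59 became -0.95 with the offsets. The AP-1 factor gene FOSB had 173 and 174 CPM in WT and 87.8 and 117 in KD, ETV4 had 58.5 and 63.7 against 35.6 and 34.1, and IL11, a cytokine gene, 18 and 16.5 against 8.7 and 4.73. For these 5 genes the values of the groups did not overlap. They were picked by the smallest p in the same libraries, so this is no further evidence. The share of such genes among all tested genes was not counted. With the offsets the log2 fold changes of 3 others were smaller, at -0.26 for CLK4 (adjusted p = 0.464 by edgeR), -0.34 for SERPINB9 (adjusted p = 0.208) and -0.53 for DENR (adjusted p = 0.0766).

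The 10 domain genes with the smallest p among those higher in KD were FAM222B, TUFT1, TUBB2A, EEIG1, EHD2, TSPAN1, VSIR, ZBTB7B, KRT19 and KIAA1522, with log2 fold changes from 1.0 to 1.5. FAM222B, in a 36 kb domain on chromosome 17, had 37.2 and 31.1 CPM in WT replicates 1 and 2 and 83.1 and 83.3 CPM in KD replicates 1 and 2. The log2 fold change of FAM222B was 1.28 (standard error 0.191, adjusted p = 0.175 by edgeR and 0.000791 by DESeq2), and it was 1.14 with the offsets (adjusted p = 0.0354 by edgeR). TUBB2A, a tubulin gene, had 48.5 and 51.4 CPM in WT and 106 and 169 in KD. KRT19 had 261 and 287 CPM in WT and 487 and 657 in KD, and its log2 fold change of 1.06 became 0.69 with the offsets. VSIR, which encodes an immune checkpoint protein, had 10.4 and 10.9 CPM in WT and 22.7 and 32.2 in KD. The KD libraries were above the WT libraries in each of these 4 genes, which their choice by the smallest p favours. In TUBB2A, KRT19 and VSIR the value of KD replicate 2 was the highest.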

How the data were processed

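The deposited ChIP-seq files list peaks that the authors called with normR against an input after alignment with STAR 2.5.1 to GRCh38, on single libraries and with parameters adjusted per data set. Their score column, as deposited, is 0 throughout. For RNA-seq the authors deposited raw counts for each gene, made with STAR, a mapping quality limit of 10, removal of duplicates and htseq-count. Neither the input nor the 4 PCHiC samples were used here.

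Domains were peaks of at least 24 kb. Gene starts and exons came from GENCODE release 44, and 106 of 23167 identifiers without a match were left out. Counts were tested on all remaining genes outside chromosomes 21, 22 and X with edgeR 4.0.16 (TMM, filterByExpr, quasi-likelihood test, Benjamini-Hochberg) in R 4.3.3, with DESeq2 1.42.0 as an alternative. Offsets were lowess trends (span 0.3) of log2 CPM on exon GC content and then on exon length. The scripts were tested on simulated data. Ratios per library used a pseudocount of 0.5 CPM. Intervals are Clopper-Pearson, by scipy 1.17.1.

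The members, gene lists and tests were chosen with earlier results of these data known. Named are the genes of the 10 longest domains, the 10 with the highest WT level, the 10 higher and 10 lower in KD with the smallest p, and up to 4 per list, of HOX genes, protocadherins, keratins, developmental factors, chromosome 19 zinc fingers, integrins and laminins, ribosomal proteins, olfactory receptors, luminal and mesenchymal genes, AP-1, ERK, TGF-beta, Polycomb and study-named genes. Some members are not reported here. Others named are said to be chosen after their values were seen.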

Additional observations from a re-analysis of the deposited data

How the results depend on the processing

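The measures of domains moved with the width limit. The share overlapping mH2A1 was 95.9%, 99.6% at 48 kb or more, 80% at 12 kb or more, and 66.8% where at least 50% of a domain had to be covered. The percent of bases under mH2A1 was 66.6%, 76.5% at 48 kb and 57.4% at 12 kb. The share with a protein-coding start was 53.3%, 70.3% at 48 kb and 66.2% with the starts of all transcripts. Genes at 0 counts in both WT libraries were 18.1%, 19.7% at 48 kb, 21.4% for genes with 50% of the body in a domain and 26.3% over all genes of the count tables. The median WT level was 8.05 CPM, 2.92 CPM by body and 2.05 as FPKM, which is another unit. Domain genes called in KD were 0 of 1677 by edgeR, and 0 too with RLE factors and on the whole table. DESeq2 called 170 of 1192, and 165 of 1358 on the whole table. Without a filter on low counts edgeR called 369 of 2251. With GC and length offsets 55 of 1677 were called in edgeR and 102 of 1192 in DESeq2. Over all genes DESeq2 called 431 higher and 447 lower of 7739, and 410 and 535 of 9262 on the whole table. Without a filter the calls in edgeR were 1025 and 1118 of 15019, and with the offsets 185 and 151 of 10943. In DESeq2 with the offsets they were 439 and 137 of 7739, and the median of all genes moved to 0.13. At an unadjusted p under 0.05 the split in edgeR went from 1289 higher and 1252 lower to 1915 and 824 with the offsets. The labels share only a replicate number, and deviations of same-numbered libraries correlated at 0.252 across genes. With the replicate block 383 of 1677 domain genes were called, 357 higher and 26 lower, where 1069 higher and 1131 lower were called over all 10943 genes. With the block and the offsets 136 were called, 98 higher and 38 lower, where all genes had 649 and 300. With each library left out, the calls ranged from 0 to 826, with 826 of 1736 without KD replicate 1 (all genes: 2316 higher and 2419 lower of 11330), 133 of 1715 without KD replicate 2 (309 and 599 of 11270) and 3 without WT replicate 2, and the lone library of a group is assumed to vary like the other group. The cause was not tested. The median log2 fold change of domain genes was 0.60 without KD replicate 1 and 0.15 without KD replicate 2, and above 0 in all alternatives, but with the offsets it was 0.113 where that of all genes was 0.095. The 20 genes named for the knockdown kept their sign in all 260 refits. They were chosen by the smallest p in these same libraries, which the refits reuse, so the kept signs are no independent check. A stricter peak score could not be applied, since all scores are 0. Limits are the 1 library per antibody, the 3 kb grid, the low depth of KD replicate 2 and the overlap of neighbouring genes.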
